A study of Mus musculus with 25 samples.

Results

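Wheel running was compared with cage activity in the Achilles tendons of AMPKcKO mice, written cKO here, a conditional knock-out in which the series title names AMPKα1 as the subunit lost. The comparison used 12 of the 25 libraries of the series. It set the 6 libraries labelled AMPKcKO and wheel runner (3 female, 3 male) against the 6 labelled AMPKcKO and cage activity (3 female, 3 male), all from mice aged 3 months. Wild type (WT) tendons with 6 running and 7 cage libraries were counted in the same way and share no library with the cKO comparison. The labels do not name the Cre driver, the deleted exons or the running protocol. They do not state that each library came from a separate animal, so p-values measure the spread between libraries.

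The Achilles tendon joins the calf muscles to the heel and is made of collagen fibrils laid down by tenocytes, with a sheath, vessels, nerves and a border with muscle. AMPK is a kinase that senses a low energy charge and, when active, favours fat oxidation and mitochondrial biogenesis over the synthesis of lipid and protein. Its catalytic subunit is encoded by either Prkaa1 (AMPKα1) or Prkaa2 (AMPKα2), and Prkaa2 is the form that predominates in skeletal muscle. Running loads the tendon and raises energy use in the muscle attached to it.

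The cKO libraries held 19377567 to 41597000 counts (median 24563546), and 19155 genes passed the filter on low counts. The targeted gene Prkaa1 was counted in all 12, at 16.2 to 22.6 CPM (the count relative to the TMM-scaled library size) in runners and 13.9 to 21.2 CPM in cage libraries, so the groups overlapped (log2 fold change 0.09 ± 0.17 SE, edgeR quasi-likelihood adjusted p = 0.863). These counts take in every exon, so an excision of some exons need not show in them. Cre was counted in 11 of the 12, at 7 to 42 counts, while 0 were seen in the library with the label cKO cage female replicate 3, which allows up to 0.122 CPM. Its count goes against that label, whose genotype is therefore in doubt, and the library stays in the cage group throughout. Leaving it out together with runner male replicate 2, a choice made after seeing the data, gave 5 calls in place of 8. For Cre and eGFP, CPM is relative to total counts without TMM scaling. The reporter eGFP was present at 84.3 to 264 CPM in 6 of 6 runners and above 10 CPM in 2 of 6 cage libraries (female replicate 1 and male replicate 1, at 163 and 117 CPM). Running and the reporter are therefore partly confounded in these libraries. Scx, a tendon transcription factor, stood at 112 to 208 CPM in runners. Among cage libraries it stood at 144 and 128 CPM in the pair carrying eGFP, and between 18.04 and 31.7 CPM in the other 4. Bop1, the ribosome biogenesis gene that overlaps Scx, followed the same split, with 186 to 564 CPM in runners, 316 and 165 CPM in that pair and 10.9 to 22.6 CPM in those 4. Neither passed the test (log2 fold changes 1.32 ± 0.51 and 1.94 ± 0.71, edgeR adjusted p = 0.264 and 0.25), and their difference cannot be told apart from that in eGFP.

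Muscle RNA was part of every library. Genes of fast and slow muscle fibres took 4.47% to 14.4% of counts in runners (mean 10.3% ± 3.68 SD, n = 6) and 8.44% to 20.7% in cage libraries (14.7% ± 4.76, n = 6). The difference of -4.37 points had an exact permutation p = 0.0974, two-sided, and an adjusted p = 0.146 over the 3 shares tested (the smallest p possible was 0.00216). In males the runners lay wholly below the cage libraries, at 4.47% to 10.7% against 15.8% to 20.7%, whereas in females the ranges were 9.50% to 14.4% and 8.44% to 17.3%. Messenger RNAs of the mitochondrial genome took 2.99% ± 1.24 of counts in runners and 4.12% ± 0.825 in cage libraries (exact permutation p = 0.0952, adjusted p = 0.146). Mitochondrial ribosomal RNA took 21.3% ± 6.08 and 25.4% ± 3.85 (exact permutation p = 0.193). The runner male replicate 2 held the lowest muscle share, the lowest mitochondrial shares and the highest TMM factor, 1.41.

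**Figure D1:**
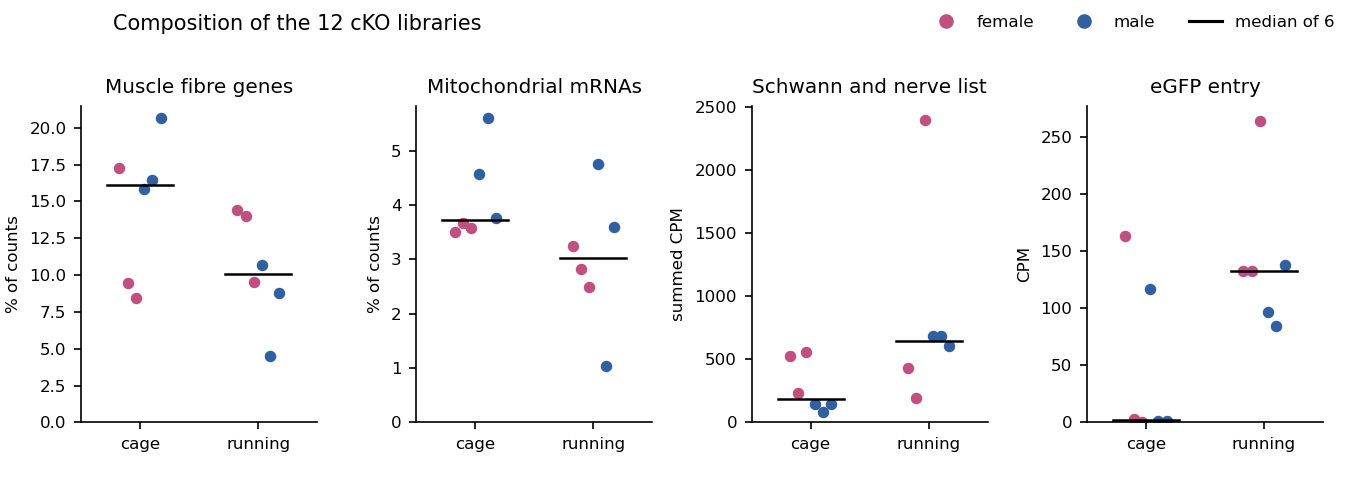
Share of counts in muscle fibre genes, share of counts in mitochondrial mRNAs, summed CPM of the Schwann cell and nerve list, and CPM of the eGFP entry, each as 1 point per cKO library with a line at the median of 6. CPM here is relative to total counts without TMM scaling. Male runners lie below all male cage libraries for muscle genes (4.47% to 10.7% against 15.8% to 20.7%), and eGFP separates 6 of 6 runners from 4 of 6 cage libraries.

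Running changed 8 of the 19155 genes in cKO tendon at an adjusted p under 0.05, which is 0.0418% of those tested. Of these, 6 rose (0.0313%) and 2 fell (0.0104%). The genes that rose were Gm35853, Uchl1, Wdr78, Rgcc, Ndrg4 and Plekho1, and those that fell were Aqp4 and Decr1. With these 8 included, 2596 genes (13.6%) had p under 0.05 before adjustment. A uniform spread of p would give 958, but genes that vary together can move that number far. Every runner lay above every cage library for 75 genes (0.392%) and below every cage library for 95 (0.496%). The number of calls moved with the tool, at 215 in DESeq2 and 384 in limma-voom, both of which held all 8. The edgeR count was 3 without cage female replicate 1, cage female replicate 3, cage male replicate 1 or cage male replicate 3, each left out alone, and 60 without WT cage female replicate 1, which shares in the estimate of spread. With eGFP carriage as a covariate no gene was called, and no gene was called among the 8 libraries with eGFP (6 runners against 2 cage). In both fits the 8 genes had the sign they had with all libraries. As the 8 were picked by p in these same libraries, neither the kept signs nor the calls shared between tools are further support. The median log2 fold change of all genes tested was 0.03, and it was 0.18 on the log2(FPKM + 1) scale.

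**Figure D2:**
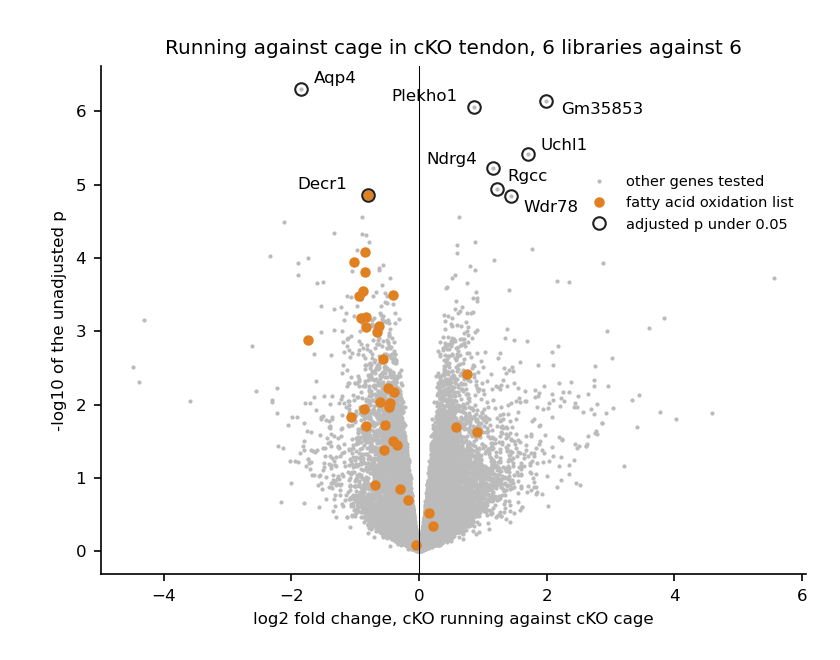
Each point is 1 of 19155 genes, with the log2 fold change of cKO runners over cKO cage libraries on the x axis and the -log10 of the unadjusted edgeR p on the y axis. Rings mark the 8 genes with an adjusted p under 0.05, and filled orange points mark the 35 genes of the fatty acid oxidation list, of which 30 lie on the lower side and only Decr1 carries a ring.

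Plekho1 (chr3:95988429-95996001, minus strand, GRCm38) encodes a pleckstrin homology domain protein that binds casein kinase 2. It stood at 29.2, 33.3 and 47.1 CPM in runners (lowest, median, highest) and at 15.9, 19.6 and 21.8 CPM in cage libraries. The groups did not overlap, and the log2 fold change was 0.87 ± 0.14 (SE, edgeR adjusted p = 0.00558). The call was retained without any 1 of the 25 libraries, as were those of Aqp4 and Gm35853, and the log2 fold change of Plekho1 ran from 0.77 to 0.92.

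Uchl1 (chr5:66676091-66687234, plus strand), a ubiquitin hydrolase best known from neurons, stood at 14.8, 29.4 and 56.6 CPM in runners and at 7.395, 9.43 and 13.03 CPM in cage libraries. Its groups were separate as well (log2 fold change 1.70 ± 0.29, edgeR adjusted p = 0.0182). An antisense gene, Uchl1os, overlaps it, and the strand of the libraries is not given in the sources used here. Ndrg4 (chr8:95676980-95715119, plus strand), of the N-myc downstream-regulated family, stood at 8.10, 20.3 and 29.4 CPM in runners and 5.996, 8.30 and 12.1 CPM in cage libraries. Only its lowest runner, male replicate 2, fell within the cage range (log2 fold change 1.17 ± 0.21, edgeR adjusted p = 0.0226). Rgcc (chr14:79288756-79301645, minus strand), a regulator of the cell cycle induced by complement, stood at 100.1, 122 and 227 CPM in runners and 37.6, 57.8 and 73.2 CPM in cage libraries. Every runner exceeded every cage library (log2 fold change 1.22 ± 0.22, edgeR adjusted p = 0.0339).

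For Uchl1, Ndrg4 and Rgcc the highest library was the same, runner female replicate 3. In these genes the log2 fold change was larger among females than among males, at 2.24 and 1.04 for Uchl1, 1.41 and 0.87 for Ndrg4, and 1.75 and 0.69 for Rgcc. No gene passed the test of a difference between the sexes (lowest edgeR adjusted p = 0.535).

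Wdr78 (chr4:103038065-103114555, minus strand) encodes a dynein chain of motile cilia. It stood at 3.01, 4.49 and 6.71 CPM in runners and 1.18, 1.66 and 2.25 CPM in cage libraries (log2 fold change 1.44 ± 0.27, edgeR adjusted p = 0.0339). The groups did not overlap, and the annotation places Mier1 and Gm12710 on the opposite strand across part of it. Gm35853 (chr15:101322888-101405834, plus strand), a predicted gene, lies outside the rule for named genes and was added after its values were seen. It stood at 1.55, 3.23 and 6.03 CPM in runners and 0.516, 0.691 and 1.29 CPM in cage libraries (log2 fold change 2.00 ± 0.31, edgeR adjusted p = 0.00558). It covers the keratin gene Krt80 on the opposite strand, and Krt80 itself had 0.76 ± 0.18 (edgeR adjusted p = 0.0966), so reads of the pair cannot be told apart.

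Of the 2 genes that fell, Aqp4 (chr18:15389496-15410982, minus strand) encodes a water channel of fast muscle fibres and of glia. It stood at 3.09, 4.72 and 8.91 CPM in runners and 11.1, 16.6 and 30.3 CPM in cage libraries, with no overlap (log2 fold change -1.84 ± 0.28, edgeR adjusted p = 0.00558). With a muscle covariate (the mean log2 CPM of muscle fibre genes) it had -1.57 (edgeR adjusted p = 0.00627). Decr1 (chr4:15917240-15945507, minus strand) encodes the mitochondrial reductase needed to oxidise polyunsaturated fatty acids. It stood at 37.7, 53.6 and 60.5 CPM in runners and 71.5, 85.6 and 137 CPM in cage libraries, again with no overlap (log2 fold change -0.79 ± 0.15, edgeR adjusted p = 0.0339). Decr1 kept its call without 11 of the 25 libraries taken one at a time, and its adjusted p was 0.149 without cage male replicate 2, the highest cage library.

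**Figure D3:**
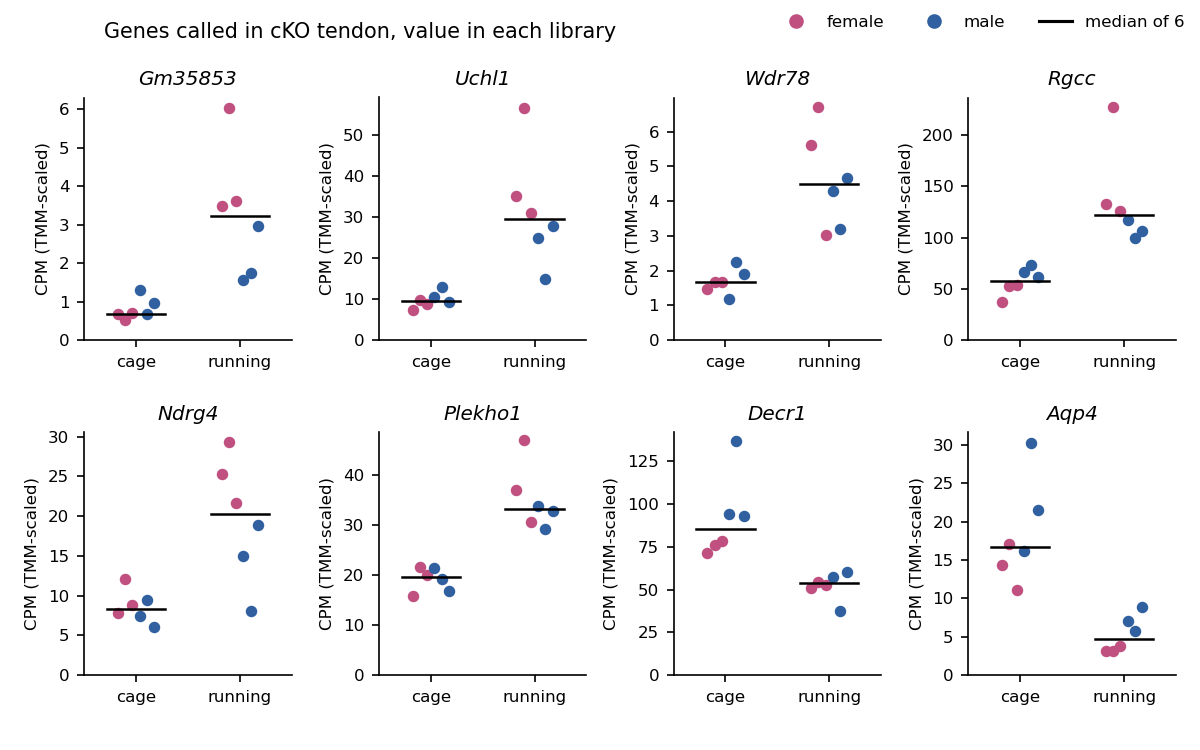
CPM of the 8 called genes in each of the 12 cKO libraries, with females and males in separate colours and a line at the median of 6. The runners and the cage libraries do not overlap in 7 of the 8 genes, and in Ndrg4 1 runner (8.10 CPM) falls below the highest cage library (12.1 CPM). Among all genes tested, runners lie wholly above cage libraries in 0.392% and wholly below in 0.496%. The 8 genes were picked by p in these same libraries, so their separation is no further support.

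Promoters of called genes are shown because these genes rose in runners. RefSeq (GRCm38.p6) held promoters for 5 of the 8 called genes. The 250 bases before a start site are given for 3 of them, 5′ to 3′ on the gene's strand, with capitals marking a CACGTG E-box where there is one.
Uchl1, chr5:66675871-66676120, plus strand: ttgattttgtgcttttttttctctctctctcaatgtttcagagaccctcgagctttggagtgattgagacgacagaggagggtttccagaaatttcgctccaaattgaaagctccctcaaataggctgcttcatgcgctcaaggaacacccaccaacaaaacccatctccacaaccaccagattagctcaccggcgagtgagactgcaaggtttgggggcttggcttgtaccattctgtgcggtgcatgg
Rgcc, chr14:79301636-79301885, minus strand: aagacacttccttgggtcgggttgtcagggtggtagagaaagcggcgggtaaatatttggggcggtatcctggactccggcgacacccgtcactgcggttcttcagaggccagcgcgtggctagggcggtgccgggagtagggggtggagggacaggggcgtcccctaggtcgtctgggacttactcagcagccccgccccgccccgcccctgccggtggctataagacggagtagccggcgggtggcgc
Ndrg4, chr8:95677513-95677762, plus strand: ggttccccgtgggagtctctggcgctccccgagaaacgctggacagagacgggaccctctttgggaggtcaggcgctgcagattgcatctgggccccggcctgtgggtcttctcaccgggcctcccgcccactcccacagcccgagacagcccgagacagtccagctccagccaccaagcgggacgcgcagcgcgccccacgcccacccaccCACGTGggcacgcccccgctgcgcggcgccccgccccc
These stretches were searched on both strands for the E-box CACGTG bound by clock factors, the cAMP response element TGACGTCA, the estrogen-related receptor (ERR) element TCAAGGTCA and the D-box TTACGTAA. Among all 32851 promoters of this length in the table, 6.02% held CACGTG, 1.55% TGACGTCA, 0.387% TCAAGGTCA and 0.113% TTACGTAA. The second of 4 Ndrg4 promoters held CACGTG, 38 bases before the start site, and its other promoters held none of the motifs. The Uchl1 and Rgcc windows held none either. The shown Rgcc window was 66.8% G and C, and that of Uchl1 48.8%.

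On the lower side 3 further genes had the smallest p-values without passing the test. Aldh1a1, a retinaldehyde dehydrogenase, stood at 37.9, 47.4 and 52.9 CPM in runners and 68.3, 79.0 and 128 CPM in cage libraries (log2 fold change -0.89 ± 0.18, edgeR adjusted p = 0.0534), with no overlap. Zdhhc23, a palmitoyltransferase, stood at 6.97, 19.0 and 23.8 CPM against 29.1, 41.8 and 63.1 CPM (-1.34 ± 0.27, edgeR adjusted p = 0.0669), also with no overlap. Lrrc52, an auxiliary subunit of potassium channels, was low in all libraries (0.285 to 1.81 CPM in runners, 1.70 to 7.30 CPM in cage libraries) and had -2.12 ± 0.42 (edgeR adjusted p = 0.0561). DESeq2 called all 3 (adjusted p = 0.000976, 0.000998 and 0.000327), beside 0.817% of the genes it tested called lower. The 3 were picked by p in these same libraries, so neither these calls nor the lack of overlap is further support.

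Fatty acid oxidation was the list that held Decr1. It holds the enzymes and carriers that bring fatty acids into mitochondria and shorten them, and of its 35 genes only Decr1 was called, beside 0.0104% of all genes called lower. Of the 35, 30 had a negative fold change, and the median was -0.57 (0.03 over all genes tested). On the lower side 26 had an unadjusted p under 0.05 and on the higher side 3, beside 1354 and 1242 of all 19155 genes. In 11 every runner lay below every cage library, beside 0.496% of all genes. The list was chosen with earlier results of these data known. DESeq2 called 13 of the 35 lower and 0 higher, beside 0.817% and 0.611% of the genes it tested, and limma-voom called 18 lower and 1 higher, beside 1.28% and 0.72%. In the muscle covariate fit, 5 of the 35 were called lower and 0 higher, beside 0.0731% and 0.0783% of all genes, and the list's median was -0.36.

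Medium-chain acyl-CoA dehydrogenase, Acadm, stood at 104, 149 and 172 CPM in runners and 194, 244 and 381 CPM in cage libraries (log2 fold change -0.85 ± 0.19, edgeR adjusted p = 0.0887). The isomerase gene Eci1 stood at 23.7, 31.4 and 34.4 CPM against 41.4, 50.0 and 82.5 CPM (-0.84 ± 0.18, edgeR adjusted p = 0.078). The thioesterase gene Acot2 stood at 7.53, 10.7 and 14.0 CPM against 16.1, 18.6 and 43.6 CPM (-1.02 ± 0.22, edgeR adjusted p = 0.0838). In each of the 3 the groups were separate, beside 0.496% of all genes with every runner below every cage library. The 3 were picked by p in these same libraries, so their separation is no further support. In each of them cage male replicate 2 was the highest library. With the muscle covariate Acadm was called (log2 fold change -0.57, edgeR adjusted p = 0.0139) and Decr1 kept its call (-0.62, 0.0108). The list's median was -0.34 in females and -0.76 in males. Members with positive fold changes included Cpt1c (0.75), Ucp2 (0.58), Fabp4 (0.22) and Cpt1a (0.16), none of them called by edgeR. In WT the median of the list was -0.19, and 6 of its 35 genes had an unadjusted p under 0.05 in the interaction of genotype and running, beside 7.19% of all genes.

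**Figure D4:**
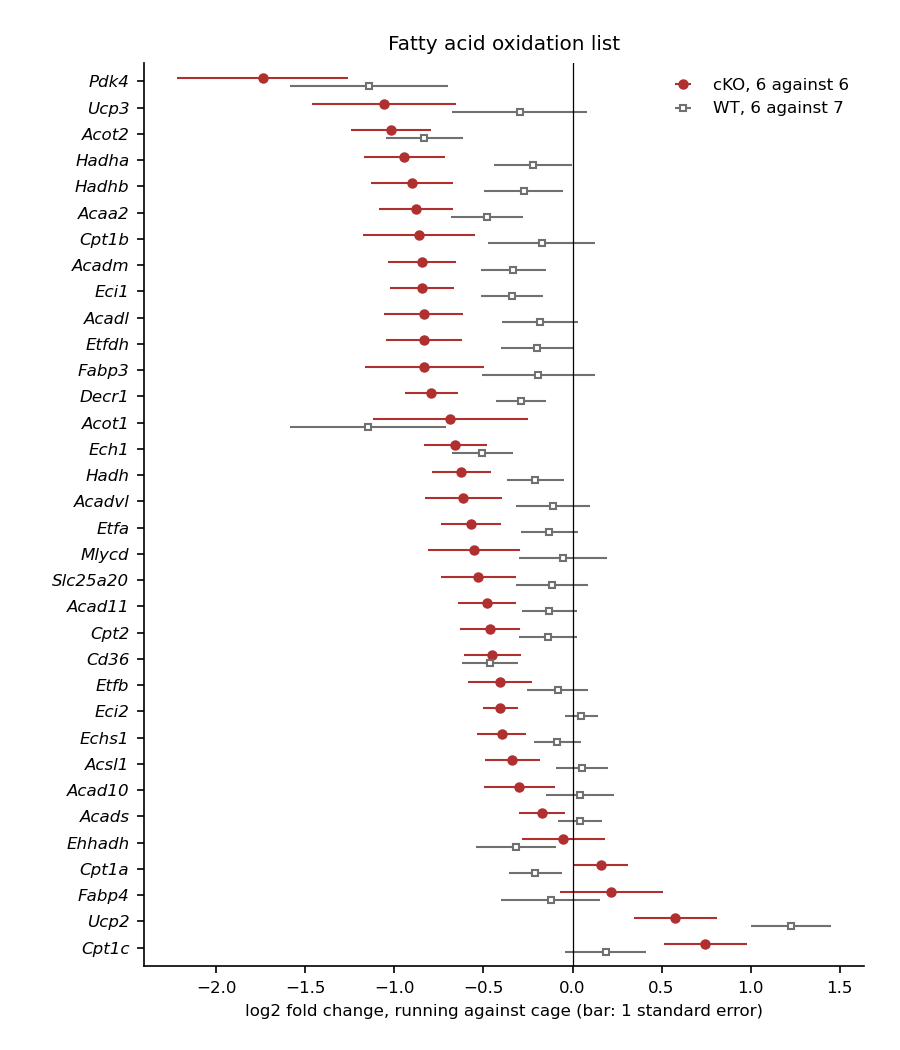
Log2 fold change of running over cage (x axis, bars 1 standard error) for 34 of the 35 genes of the fatty acid oxidation list, with filled circles for cKO (6 against 6 libraries) and open squares for WT (6 against 7). In cKO 30 of the 34 circles lie below 0, 1 of the 5 members above 0 is not shown, and the medians of the whole list are -0.57 in cKO and -0.19 in WT.

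Of 13 genes of pyruvate dehydrogenase, its kinases and the pyruvate carrier, 12 had a negative fold change (median -0.50), and edgeR called none. Pdk4, the kinase that shuts off pyruvate dehydrogenase, ranged from 39.6 to 274 CPM in runners and 268 to 1756 CPM in cage libraries (log2 fold change -1.74 ± 0.48, edgeR adjusted p = 0.16). The fold change of Pdk4 was -0.40 in females and -3.19 in males. Dld, the shared E3 subunit, stood at 67.9 to 124 CPM against 127 to 223 CPM (-0.63 ± 0.18, edgeR adjusted p = 0.162), and Pdha1, the E1 subunit, had -0.76 ± 0.23 (edgeR adjusted p = 0.189). DESeq2 called 2 of the 13 lower, beside 0.817% of all genes.

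Regulators of these programmes were measured too. Of 24 genes for PGC-1 coactivators and mitochondrial biogenesis, 19 had a negative fold change (median -0.40), and 0 were called by edgeR and 2 lower by DESeq2 (beside 0.817% of all genes). Without runner male replicate 2 the median was -0.26. Ppargc1a, which encodes PGC-1α, stood at 12.8, 15.1 and 25.9 CPM in runners and 21.1, 36.4 and 51.7 CPM in cage libraries (log2 fold change -1.13 ± 0.27, edgeR adjusted p = 0.112). Ppara, the nuclear receptor that drives fat oxidation genes, stood at 2.93, 5.999 and 7.27 CPM against 7.68, 12 and 14.8 CPM with no overlap (-1.08 ± 0.32, edgeR adjusted p = 0.178). Perm1, a muscle regulator induced by PGC-1, had -1.20 ± 0.36 (edgeR adjusted p = 0.194). Sod2, the superoxide dismutase of mitochondria, had -0.77 ± 0.23 (edgeR adjusted p = 0.199).

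Nuclear genes of oxidative phosphorylation lay on the lower side in 76 of 78 (median -0.40), with none called by edgeR. Among them Sdha of complex II had -0.57 ± 0.18 and Ndufs8 of complex I had -0.60 ± 0.20 (edgeR adjusted p = 0.207 and 0.221). All 13 mRNAs of the mitochondrial genome had negative fold changes (median -0.61, none called by edgeR), with mt-Nd6 at -0.97 ± 0.34 and mt-Nd5 at -0.92 ± 0.34 (edgeR adjusted p = 0.235 and 0.248). The nuclear list had medians of -0.10 in females and -0.69 in males, and -0.17 with the muscle covariate. In WT its median was 0.05. Without runner male replicate 2 the nuclear median was -0.26 and the mitochondrial one -0.40. These genes are abundant in muscle, whose share of counts had a lower mean in runners without passing its test (exact permutation, adjusted p = 0.146). The part of the muscle share in these medians was not tested.

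Muscle fibre genes themselves were on the lower side in cKO runners. All 29 fast fibre genes had a negative fold change (median -0.51) and 13 of 16 slow fibre genes did (median -0.32), with none called by edgeR. Without runner male replicate 2 the medians were -0.31 and -0.095, and without runner female replicate 3 they were -0.78 and -0.61. With the muscle covariate the slow fibre median was 0.05. That shift was largely set in advance, since the covariate is the mean of these same fast and slow fibre genes. Atp2a1, the calcium pump of fast fibres, stood at 590 to 2762 CPM in runners and 1963 to 5336 CPM in cage libraries (log2 fold change -0.91 ± 0.40, edgeR adjusted p = 0.325). Ttn, the giant spring protein of the sarcomere, had -1.07 ± 0.50 (edgeR adjusted p = 0.348), and the acetylcholine receptor gene Chrna1 had -1.54 ± 0.42 with no overlap of the groups (edgeR adjusted p = 0.151). Csrp3, a stretch-responsive protein of the Z-disc, had the opposite sign, at 80.3, 408 and 724 CPM in runners and 120, 194 and 327 CPM in cage libraries (1.01 ± 0.35, edgeR adjusted p = 0.232). Csrp3 was called higher with the muscle covariate (1.31, edgeR adjusted p = 0.0236), although it is itself among the genes of that covariate. It was also called higher by limma-voom (1.18, adjusted p = 0.0134). The fast fibre median was 0.08 in females and -1.27 in males, and 0.21 in WT. In whole tendon, fewer cells of a type and less RNA per cell cannot be told apart.

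Glucose-handling genes lay on both sides of 0. Of 33 genes for glucose entry, glycolysis and glycogen, 23 had a negative fold change (median -0.35, and -0.02 with the muscle covariate), and none was called by edgeR. Without runner male replicate 2 the median was -0.19. Tbc1d4, which holds back the glucose transporter GLUT4 until it is phosphorylated, stood at 27.5, 34.6 and 37.1 CPM in runners and 38.8, 67.9 and 93.0 CPM in cage libraries (log2 fold change -0.97 ± 0.21, edgeR adjusted p = 0.078). Slc16a1, the lactate transporter MCT1, stood at 27.6, 48.6 and 64.8 CPM against 65.3, 75.4 and 111 CPM (-0.74 ± 0.19, edgeR adjusted p = 0.137). Both were separate between the groups. In this list 2 of 33 genes had every runner below every cage library, beside 0.496% of all genes. Ldhb, the heart form of lactate dehydrogenase, had -0.75 ± 0.25, and Slc2a1, the transporter GLUT1 of non-muscle cells, had 0.69 ± 0.22 (edgeR adjusted p = 0.228 and 0.218).

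Lipid synthesis lay on the other side. Of 25 genes for cholesterol synthesis and uptake, 19 had a positive fold change (median 0.19), and of 17 for fatty acid synthesis 11 did (median 0.34, and 0.05 with the muscle covariate), with none called by edgeR. Srebf2, the master regulator of cholesterol synthesis, stood at 48.5, 57.4 and 66.0 CPM in runners and 27.4, 36.9 and 53.9 CPM in cage libraries (log2 fold change 0.59 ± 0.12, edgeR adjusted p = 0.0739). Acly, which makes cytosolic acetyl-CoA, had 0.70 ± 0.19, and the elongase Elovl6 had 0.71 ± 0.26 (edgeR adjusted p = 0.16 and 0.246). The sterol enzymes Fdps and Lss had 0.38 ± 0.12 and 0.47 ± 0.16 (edgeR adjusted p = 0.218 and 0.232). The cholesterol median was -0.12 in females and 0.49 in males, and the fatty acid synthesis median -0.04 and 0.75. Without runner male replicate 2 the medians were 0.11 and 0.036, and without cage male replicate 2 they were 0.11 and 0.15. Lpl, the lipase that releases fatty acids from circulating fat, had -0.63 ± 0.19 (edgeR adjusted p = 0.176).

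No AMPK component was called by edgeR. Prkaa2 stood at 27.7, 59.5 and 83.5 CPM in runners and 55.3, 105 and 144 CPM in cage libraries (log2 fold change -0.76 ± 0.33, edgeR adjusted p = 0.312), with -0.26 in females and -1.23 in males. Over the 12 subunits and upstream kinases 7 had a negative fold change and the median was -0.11, which was 0.02 with the muscle covariate, 0.01 with the eGFP covariate and 0.15 on the log2(FPKM + 1) scale. Fnip1, a partner of folliculin that binds AMPK, stood at 40.0 to 55.2 CPM in runners and 56.1 to 92.9 CPM in cage libraries, which did not overlap (-0.56 ± 0.15, edgeR adjusted p = 0.137).

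No matrix gene was called by edgeR. Of 40 genes for fibrillar collagens and their assembly, 31 had a positive fold change (median 0.20), as did 26 of 33 for elastic fibres, hyaluronan and matricellular proteins (median 0.24). The collagen median was 0.11 without cage male replicate 2. Of 12 small leucine-rich proteoglycans 5 were positive (median -0.04), and of 12 fibrocartilage and lubrication genes 6 were (median 0.02). Cilp, a cartilage intermediate layer protein of tendon and cartilage, stood at 159, 286 and 460 CPM in runners and 102, 152 and 206 CPM in cage libraries (log2 fold change 0.89 ± 0.21, edgeR adjusted p = 0.11). DESeq2 and limma-voom called Cilp (adjusted p = 0.00935 and 0.0206). Col5a1 and Col5a3, chains of the collagen V that limits fibril width, had 0.57 ± 0.22 and 0.50 ± 0.20, and Bmp1 and Loxl1, enzymes of procollagen cleavage and crosslinking, had 0.40 ± 0.15 and 0.43 ± 0.18 (edgeR adjusted p = 0.26 to 0.283). The microfibril protein Mfap5 had 0.55 ± 0.19, thrombospondin Thbs3 0.53 ± 0.18 and tenascin Tnxb 0.46 ± 0.17 (edgeR adjusted p = 0.232 to 0.245). In WT the medians of the 2 lists were -0.07 and 0.00332. Among 21 tested proteases and inhibitors the median was 0.11 (-0.01 with the eGFP covariate), and the aggrecan protease Adamts8 had -1.47 ± 0.57 (edgeR adjusted p = 0.267). Prg4, the lubricant lubricin, had 0.60 ± 0.41 (edgeR adjusted p = 0.519). The tenocyte identity list had a median of -0.02 over 16 genes, 7 of them positive.

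Among growth factor and load-sensing genes edgeR called none. DESeq2 called 3 of 36 TGF-beta and BMP genes lower and 1 of 28 mechanosensing genes higher (beside 0.817% and 0.611% of all genes), and limma-voom called 4 of 38 lower and 2 of 28 higher (beside 1.28% and 0.72%). Crim1, a membrane protein that binds BMPs, stood at 46.8, 47.9 and 71.4 CPM in runners and 61.7, 80.3 and 93.0 CPM in cage libraries (log2 fold change -0.56 ± 0.12, edgeR adjusted p = 0.0845). Nog, the BMP antagonist noggin, had -1.34 ± 0.36 and the receptor gene Tgfbr2 0.45 ± 0.14 (edgeR adjusted p = 0.15 and 0.207), within a list of 38 whose median was -0.06. Tln1, the talin that links integrins to actin, stood at 272 to 336 CPM in runners and 215 to 266 CPM in cage libraries, which did not overlap (0.34 ± 0.10, edgeR adjusted p = 0.174). The fibronectin receptor chain Itga5 had 0.51 ± 0.15 and the mechanosensitive channel Trpv4 0.75 ± 0.26 (edgeR adjusted p = 0.174 and 0.232), and the mechanosensing list had 17 of 28 positive and a median of 0.13.

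Hspa1b, the inducible cytosolic HSP70, stood at 21.5, 30.7 and 34.8 CPM in runners and 16.4, 20.1 and 21.3 CPM in cage libraries, with no overlap (log2 fold change 0.63 ± 0.12, edgeR adjusted p = 0.0534). Hspd1, the mitochondrial HSP60, stood at 52.05, 63.5 and 74.4 CPM against 79.2, 95.0 and 130 CPM, also with no overlap (-0.62 ± 0.14, edgeR adjusted p = 0.0865). With the muscle covariate both were called, at 0.64 (edgeR adjusted p = 0.0286) and -0.45 (0.0385). Over the 26 chaperones the median was -0.12, which was 0.10 on the log2(FPKM + 1) scale, 0.15 in females, -0.46 in males and -0.02 without runner male replicate 2.

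Among clock genes edgeR called none, DESeq2 called 1 of 19 higher and 1 lower (beside 0.611% and 0.817% of all genes), and limma-voom called 1 higher and 3 lower (beside 0.72% and 1.28%). The list had a median of 0.12 over 19 genes (-0.03 with the replicate block). The output factor Dbp stood at 61.0, 112 and 131 CPM in runners and 55.6, 62.9 and 76.97 CPM in cage libraries (log2 fold change 0.68 ± 0.17, edgeR adjusted p = 0.126). Clock itself stood at 55.1 to 70.4 CPM against 73.9 to 82.1 CPM with no overlap (-0.29 ± 0.11, edgeR adjusted p = 0.248). Nfil3, a repressor at the same D-box sites as Dbp, had -0.69 ± 0.22 (edgeR adjusted p = 0.207). The labels give no time of day for the samples. Immediate early genes had a median of -0.12 (0.09 on the log2(FPKM + 1) scale), with Zfp36 at -0.50 ± 0.14 and Fos at -0.57 ± 0.26 (edgeR adjusted p = 0.16 and 0.334), and the glucocorticoid target Sgk1 had -0.63 ± 0.21 (edgeR adjusted p = 0.221).

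Markers of Schwann cells and nerve, of macrophages and of mast cells were on the higher side in cKO runners. All 21 Schwann cell and nerve genes had a positive fold change (median 1.31), and none was called by edgeR. Of them 15 had an unadjusted p under 0.05, beside 1242 of all 19155 genes on the higher side. Gldn, the gliomedin that gathers sodium channels at nodes, stood at 3.46, 6.48 and 21.7 CPM in runners and 0.609, 1.02 and 4.95 CPM in cage libraries (log2 fold change 2.35 ± 0.55, edgeR adjusted p = 0.0966). The myelin genes Prx and Pmp22 had 2.76 ± 0.84 and 1.23 ± 0.36 (edgeR adjusted p = 0.197 and 0.178). The summed level of the list, relative to total counts without TMM scaling, was 195.5, 646.5 and 2398 CPM in runners. In cage libraries it was 83.96, 189.5 and 558.7 CPM. The highest library was runner female replicate 4 (TMM factor 1.269), and the lowest was cage male replicate 2 (TMM factor 0.7027). In WT the median was 0.06, and 9 of the 21 had an unadjusted p under 0.05 in the interaction, beside 7.19% of all genes. DESeq2 called 5 of 20 higher, beside 0.611% of all genes, among them Gldn and Prx (adjusted p = 0.00203 and 0.0402). The limma-voom fit called 3 of 21 higher, beside 0.72%, and the muscle covariate fit 0 of 21, beside 0.0783%. With that covariate Gldn and Prx had 1.89 and 2.12 (edgeR adjusted p = 0.105 and 0.341). The list's median was 0.93 in females and 2.15 in males. Every runner lay above every cage library in 0 of the 21, beside 0.392% of all genes.

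Macrophage markers had a positive fold change in 23 of 24 (median 0.45 in cKO and 0.45 in WT). Their summed level, again without TMM scaling, was 579.1 to 1386 CPM in runners and 250.8 to 927.7 CPM in cage libraries. Trem2 had 1.17 ± 0.41 and the complement gene C1qb 0.70 ± 0.28 (edgeR adjusted p = 0.239 and 0.28). All 9 tested mast cell genes were positive (median 0.92), with the tryptase Tpsab1 at 1.67 ± 0.59 and the chymase Cma1 at 1.06 ± 0.50 (edgeR adjusted p = 0.239 and 0.356). The mast cell median was 0.04 in females and 1.86 in males. Of 19 lymphocyte and neutrophil genes only 3 passed the filter on low counts, 2 of them positive (median 0.16), and 0 were called by edgeR. Of 18 sheath and progenitor fibroblast genes 17 were positive (median 0.27), with Pi16 at 0.86 ± 0.26 (edgeR adjusted p = 0.194). Cspg4, the pericyte proteoglycan NG2, had 0.48 ± 0.14 (edgeR adjusted p = 0.167). All 11 tested keratinocyte and erythroid genes were positive (median 0.93, 0.30 without runner male replicate 2 and 1.85 without cage female replicate 3), and Dsp, a desmosome gene of epidermis, stood at 35.2 CPM in runner male replicate 2 and between 0.14 and 1.90 CPM elsewhere. The part of these cells in the other results was not tested.

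**Figure D5:**
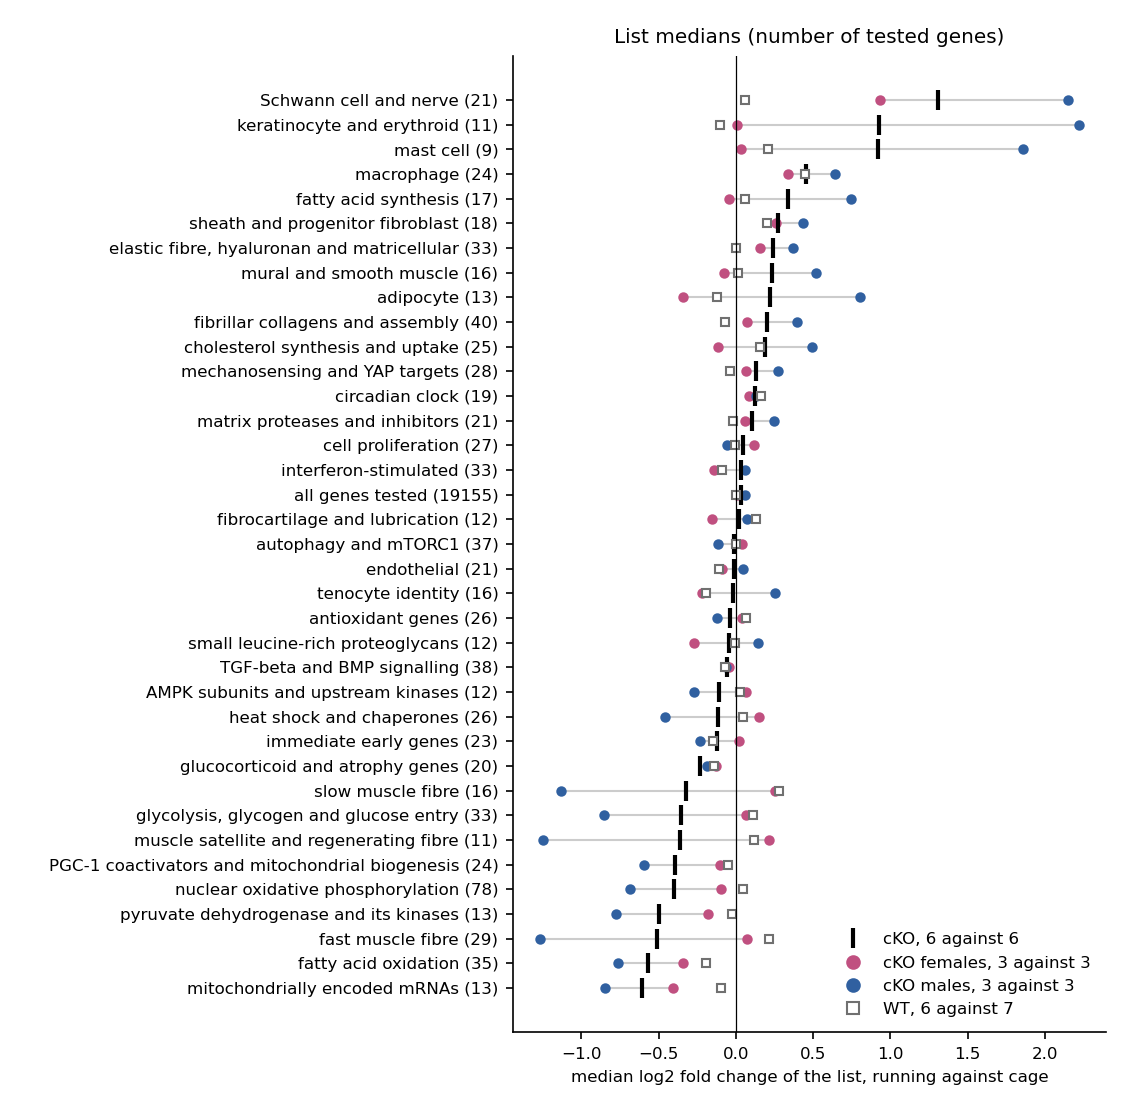
Median log2 fold change of running over cage for gene lists (number of tested genes in brackets), with a black bar for all cKO libraries, coloured points for cKO females and males and an open square for WT. The lymphocyte and neutrophil list and the list drawn from genes that changed with running in these samples are not shown. The Schwann cell and nerve list has the highest cKO median (1.31) and the mitochondrially encoded mRNAs the lowest (-0.61), and the medians of muscle lists differ in sign between females (0.08 for fast fibres) and males (-1.27).

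In WT tendon running changed 25 genes (0.131% of those tested). Of the 8 cKO calls, 6 were also called in WT, which is 75% of the cKO calls and 24% of the WT calls. All 8 had the same sign in WT, and all 25 WT calls had the same sign in cKO. The WT log2 fold changes were 1.15 for Plekho1, 2.05 for Uchl1, 1.48 for Ndrg4, 1.28 for Rgcc, 0.97 for Wdr78, 2.26 for Gm35853, -1.39 for Aqp4 and -0.29 for Decr1. No gene passed the test of the interaction between genotype and running (lowest edgeR adjusted p = 0.672), and 1377 (7.19%) had an unadjusted p under 0.05 there. Of those called in cKO, Decr1 had an unadjusted edgeR interaction p of 0.0205, and for the others it was above 0.05.

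Genes with the smallest interaction p are given as values, and none passed the interaction test. Thrb, the thyroid hormone receptor β gene, stood at 16.1 to 18.8 CPM in cKO runners and 19.1 to 27.9 CPM in cKO cage libraries (log2 fold change -0.46 ± 0.13) and had 0.31 in WT, though its cKO fold change was 0.01 on the log2(FPKM + 1) scale. The mitochondrial genes Eci2 and Cox15 had -0.41 and -0.32 in cKO and 0.05 and 0.26 in WT. The ubiquitin ligase gene Siah2 and the glyoxalase gene Hagh had -0.39 and -0.31 in cKO and 0.34 and 0.54 in WT. On the other side, the spectrin gene Sptbn5 stood at 4.29, 9.12 and 24.1 CPM in cKO runners and 1.44, 2.07 and 5.55 CPM in cKO cage libraries (2.17 ± 0.50, and -0.58 in WT). Efcc1, the imprinted RNA Meg3 and Fam13b had 0.74, 0.35 and 0.20 in cKO and -0.86, -0.48 and -0.32 in WT.

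The sexes were set side by side in 3 against 3 libraries each. Males alone gave 30 calls, none of them among the 8, and females alone gave 0, and the test of the difference between the sexes called 0 genes (1785 with an unadjusted p under 0.05; 2 genes called by DESeq2 and 0 by limma-voom). The running difference in muscle share was 0.923 points in females and -9.67 points in males. The difference between those, -10.6 points, had an exact permutation p = 0.04 over 400 relabellings of sex within each activity, two-sided (adjusted p = 0.12 over the 3 shares).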

How the data were processed

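Bulk RNA-seq of mouse Achilles tendon was analysed in 12 cKO libraries, with 13 WT libraries in the same fit. Per the submitters' processing notes, reads were handled with STAR 2.7.8a and RSEM 1.3.3 on GRCm38, and FastQC 0.11.8 and cutadapt 2.3 are also listed. The authors deposited estimated counts and FPKM per gene for 55487 genes and 4 reporter entries. Counts were rounded, scaled by TMM and filtered on low counts, which left 19155 genes, and fitted with edgeR 4.0.16 (quasi-likelihood, group and sex, Benjamini-Hochberg adjustment, threshold 0.05) in R 4.3.3. The 25 libraries held 13193228 to 45724244 counts. Alternatives used DESeq2 1.42.0, limma 3.58.1 (voom, and log2 of the deposited FPKM plus 1 or 0.1), other filters, covariates and left-out libraries. Scripts were tested on simulated data. Figures used matplotlib 3.10.9.

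Genes were named by a rule: Prkaa1, Prkaa2, Scx and Bop1, called genes by p and by fold change, the genes of smallest p where under 5 were called in a direction, up to 4 genes of smallest p in each list, and the 5 of smallest interaction p in each direction, at a mean log2 CPM of at least 1 where set. Predicted genes were left out, so Gm35853 is an exception made after its values were seen. Members of the fatty acid oxidation list with positive fold changes are named as a description. Where a gene was picked by p in these same libraries, a lack of overlap between its groups is no further support. The comparison and the 38 gene lists were chosen with earlier results of these data known, and 1 list, not reported as support, was drawn from genes that changed with running in these samples. Some genes that the rule names, and a promoter sequence, are not reported here.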

Additional observations from a re-analysis of the deposited data

Results flagged for a closer look

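In 18 of 182 groups of 6 values, 1 library stood far from the other 5. The cut-off used flags about 5 percent of groups when values are independent and normally spread. Here the groups share the same libraries, and many of the genes were picked by p. The count therefore cannot be compared with that rate, and no conclusion is drawn from it. In each of the 18 the library that stood apart held the highest value of its group. Cage male replicate 2 was such a library for Decr1 (137 CPM, others 71.5 to 94.3), Eci1 (82.5), Acot2 (43.6), Pdk4 (1756, others 268 to 688), Ndufs8 (82.8) and Ldhb (627). Runner female replicate 4 was so for Gldn (21.7), Pmp22 (436), Prx (218.5) and Trem2 (5.42). Runner male replicate 2 was so for Col5a1 (972), Dsp (35.2) and Meg3 (44.3). Runner male replicate 1 was so for Crim1 (71.4), Ppargc1a (25.95) and Fos (10 CPM). Runner female replicate 3 held the highest Rgcc (227 CPM, others 100.1 to 133), and cage female replicate 3 the highest Zfp36 (31.9 CPM).

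The running difference in muscle share differed between males and females by -10.6 points (exact permutation p = 0.04, adjusted p = 0.12). Reporter entries lie outside the gene comparison, and their CPM is relative to total counts without TMM scaling. The eGFP entry reached 264 CPM in cKO runners and 163 CPM in cKO cage libraries, against 0.0219 CPM at most in WT cage libraries. The Cre entry reached 1.65 and 1.42 CPM, against 0 in WT cage libraries.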

How the results depend on the processing

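The 8 cKO calls kept their sign in all 19 alternatives that leave out no single library, but the number of calls moved. The 8 were picked by p in these same libraries, so their kept sign is no further support. The counts in cKO and WT were 574 and 197 with no filter on low counts, 215 and 161 with DESeq2, 384 and 90 with limma-voom, and 29 and 262 with a muscle covariate. They were 3 and 14 with log2(FPKM + 0.1), 5 and 12 with only the libraries of the genotype compared, 0 and 16 with an eGFP covariate, 3 and 11 without the libraries of the less common project prefix, 0 and 1 in females and 30 and 3 in males. The less common prefix was carried by cKO cage male replicate 3 and WT cage female replicate 4. Every runner carried the other prefix, so the less common one lay only on the cage side of both comparisons. Of the cKO libraries, cage male replicate 3 also held the highest muscle share, 20.7%. In cKO alone the counts were 5 with log2(FPKM + 1), 5 with a mitochondrial rRNA covariate and 0 among libraries with eGFP. Chosen after seeing the data, leaving out runner male replicate 2 and the cage library without Cre gave 5 and 38, and leaving out 2 WT runners that stand apart gave 16 and 6. Without 1 library the counts ranged from 3 to 60 in cKO and from 11 to 36 in WT. The interaction gave 65 calls with no filter, and the sex difference 2 with DESeq2. The cause was not tested.

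With the replicate block 1 gene was called in cKO and 12 in WT. Over 5 pairs of same-numbered libraries the correlations ran from -0.31 to 0.01, and 0 of 5 correlated best with their own number, so the numbers were not taken to pair the libraries. The clock list had a median of -0.030 with the block.

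Without 1 library the muscle share difference ran from -5.62 to -3.17 points and the mitochondrial mRNA difference from -1.48 to -0.733. At -5.62, without cage female replicate 3, the exact permutation p was 0.0411, and at -1.48, without runner male replicate 1, it was 0.00649, neither adjusted. As a share of FPKM, the mitochondrial rRNA difference was -6.14 (exact permutation p = 0.0346).

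These signs turned. Thrb had 0.014 with log2(FPKM + 1) and 0.013 with log2(FPKM + 0.1). Prkaa1 had -0.013 with the eGFP covariate and -0.00527 among libraries with eGFP. Dsp had -0.36 with the muscle and -0.985 with the mitochondrial rRNA covariate, -0.95 without runner male replicate 2 and -0.97 also without the cage library without Cre. With log2(FPKM + 1) and log2(FPKM + 0.1), medians were 0.15 and 0.16 for AMPK subunits, 0.088 and 0.10 for immediate early genes, 0.0999 and 0.10 for chaperones, and 0.051 and 0.058 for glucocorticoid genes. With the muscle covariate they were 0.019 for AMPK subunits, 0.028 for chaperones, 0.054 for slow fibres (whose genes are part of that covariate), 0.098 for satellite genes and -0.13 for adipocytes. With the mitochondrial rRNA covariate they were 0.13 for AMPK subunits, -0.019 for proteases and 0.051 for chaperones, and with the eGFP covariate 0.012 for AMPK subunits and -0.014 for proteases. In females they were 0.067 for AMPK subunits, 0.023 for immediate early genes, 0.064 for glycolysis, -0.12 for cholesterol, -0.041 for fatty acid synthesis, 0.15 for chaperones, 0.076 for fast fibres, 0.25 for slow fibres, 0.21 for satellite genes, -0.072 for mural cells and -0.35 for adipocytes. For adipocytes the median was -0.025 with limma-voom. Without 1 library the AMPK median ran from -0.15 (cage female replicate 3) to 0.026 (cage male replicate 2), and was 0.0050 without runner male replicate 2. The adipocyte median ran from -0.046 (runner male replicate 2) to 0.41 (cage female replicate 3), and Dsp from -0.95 to 3.27 (cage male replicate 2).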

Other observations

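The library labelled WT running male replicate 2 held eGFP at 119 CPM and 0 Cre counts. The other 12 WT libraries held at most 0.0219 CPM of eGFP.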
